A study of Sus scrofa with 16 samples.

Results

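The calgranulins S100A8, S100A9 and S100A12, the peptidoglycan recognition protein PGLYRP1 and the serum amyloid SAA3 were examined as 5 genes out of 4788 named genes with a usable probe in pig subcutaneous fat. They were chosen by name, with earlier results of the same arrays known, because the calgranulins and PGLYRP1 lay on opposite sides of a difference between pigs numbered 1 to 4 and pigs numbered 5 to 8. A probe counted as a member if it was no control spot, carried the gene's name and stood well above background on 4 arrays or more of the 16. This gave 1 probe each for S100A8, S100A9 and S100A12 and 2 for PGLYRP1. No spot carried the name SAA3. The 5 probes listed as LOC733603, which the array describes as serum amyloid A2, were used in its place because their RefSeq accession belongs to SAA3 in the RefSeq gene table (assembly Sscrofa11.1). All 10 probes passed the background rule, so no member was left out. Serum amyloid A genes are near copies of one another, and which of them a probe read is uncertain.

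The study hybridised subcutaneous adipose tissue RNA (SCAT in the labels) of 16 pigs at 20 kg body weight, 1 array per pig, from 2 strains. Pigs of the strain RFIneg had low residual feed intake (low-RFI, n = 8), meaning that they ate less than predicted from their growth and maintenance, and those of the strain RFIpl had high residual feed intake (high-RFI, n = 8). Both strains were fed ad libitum, and no other treatment, sex or age is given in the labels. Replicates are numbered 1 to 8 in each strain. The labels do not say what, if anything, separates replicates 1 to 4 (set 1) from replicates 5 to 8 (set 2), and the sets are described here by these numbers alone.

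Calgranulins are small calcium-binding proteins of the S100 family that neutrophils and monocytes make in large amounts. S100A8 and S100A9 join into calprotectin, which withholds zinc and manganese from microbes, and once outside the cell all of them can act on the receptors TLR4 and AGER (RAGE). PGLYRP1 is a secreted protein of neutrophil granules that binds bacterial cell wall. SAA3 is an acute-phase apolipoprotein that tissues outside the liver, fat among them, can make during inflammation.

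The probes are shown first because the results depend on which sequence each gene was read with. Each is 60 bases long, 5′ to 3′ as deposited, all in lower case since no part is singled out. The calgranulins and both PGLYRP1 probes were:
S100A8 A_72_P428729: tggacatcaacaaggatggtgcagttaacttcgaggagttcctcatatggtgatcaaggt
S100A9 A_72_P137861: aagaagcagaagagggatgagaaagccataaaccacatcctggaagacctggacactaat
S100A12 A_72_P441085: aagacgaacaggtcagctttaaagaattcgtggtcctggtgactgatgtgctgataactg
PGLYRP1 A_72_P232762: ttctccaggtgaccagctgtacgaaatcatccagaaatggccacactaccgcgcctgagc
PGLYRP1 A_72_P245717: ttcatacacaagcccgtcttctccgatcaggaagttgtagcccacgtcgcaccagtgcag
The first PGLYRP1 probe is listed with a RefSeq mRNA, and the other was taken from a cDNA clone that was read from its 3′ end, whose strand relative to the mRNA was not established here. No 2 of these 5 probes, and no other probe on the array, shared a run of 20 bases with any of them.

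The SAA3 probes are shown because they fall into 2 places in the message and partly repeat each other:
SAA3 A_72_P165616 and A_72_P441669: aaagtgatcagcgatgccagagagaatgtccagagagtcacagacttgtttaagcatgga
SAA3 A_72_P759880: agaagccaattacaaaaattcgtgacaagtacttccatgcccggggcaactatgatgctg
SAA3 A_72_P760975: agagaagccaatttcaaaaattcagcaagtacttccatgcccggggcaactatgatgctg
SAA3 A_72_P766152: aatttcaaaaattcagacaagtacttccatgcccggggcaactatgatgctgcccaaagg
The first sequence is on the array under 2 probe names. The other 3 overlap by runs of at least 35 bases, so the 5 probes are repeated readings of 2 stretches rather than 5 separate measurements. A further probe, described as matching mink serum amyloid A-2 and left out here, shares 20 bases with A_72_P760975 on the opposite strand.

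In the RefSeq gene order S100A8, S100A12 and S100A9 lie side by side. PPGRP-S and PGLYRP3, both peptidoglycan recognition genes, follow directly. PGLYRP1 is not among these neighbours. The probe for pPGRP-S was well above background on 1 of 16 arrays and was not tested.

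A level below is the log2 signal of a probe minus the 75th percentile of its array, so 0 is a bright probe and a step of 1 is a 2-fold change. Levels of different genes are not compared, because probes differ in how strongly they bind. A gene with several probes is given by the one of highest mean level unless another is named. Between 68.7% and 80.3% of the spots of an array were well above background and none was saturated. Of the 10 member probes, all 3 calgranulin probes and 4 of the SAA3 probes were well above background on all 16 arrays.

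The calgranulins were high in the 4 high-RFI pigs of set 1, and their levels spanned 2.84 to 3.62 on the log2 scale over the 16 pigs. For S100A9 the levels in high-RFI replicates 1 to 4 were -0.91, -1.07, -0.84 and -1.60. In high-RFI replicates 5 to 8 they were -3.68, -1.72, -3.10 and -3.11. Every high-RFI pig of set 2 was below every high-RFI pig of set 1. Among the low-RFI pigs, replicates 1 to 4 had -2.91, -1.82, -3.53 and -1.35. Replicates 5 to 8 had -2.84, -3.61, -2.61 and -3.55. In this strain the sets overlapped: replicate 4 lay among the high-RFI pigs of set 1 and replicate 2 just below them, while replicates 1 and 3 lay among set 2.

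S100A12, which in pigs and humans but not in mice completes the calgranulin trio, followed the same pigs. Its levels were 3.70, 3.30, 3.62 and 3.19 in high-RFI replicates 1 to 4. They were 0.71, 2.79, 1.19 and 1.39 in high-RFI replicates 5 to 8. Replicate 6 was the one high-RFI pig of set 2 that came near set 1. The low-RFI pigs had 2.03, 3.11, 0.17 and 3.10 in replicates 1 to 4. They had 1.06, 0.90, 1.87 and 1.18 in replicates 5 to 8. The lowest of all 16 was low-RFI replicate 3.

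S100A8, the partner of S100A9 in calprotectin, had 2.01, 1.59, 1.72 and 0.51 in high-RFI replicates 1 to 4. It had -1.45, 1.20, -0.59 and -0.82 in replicates 5 to 8, and here the sets overlapped because replicate 6 exceeded replicate 4. The low-RFI pigs had -0.62, 0.75, -0.92 and 1.56 in replicates 1 to 4. Replicates 5 to 8 had -0.04, -1.61, -0.25 and -0.31. Low-RFI replicates 2 and 4 were again the highest of their strain.

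**Figure D1:**
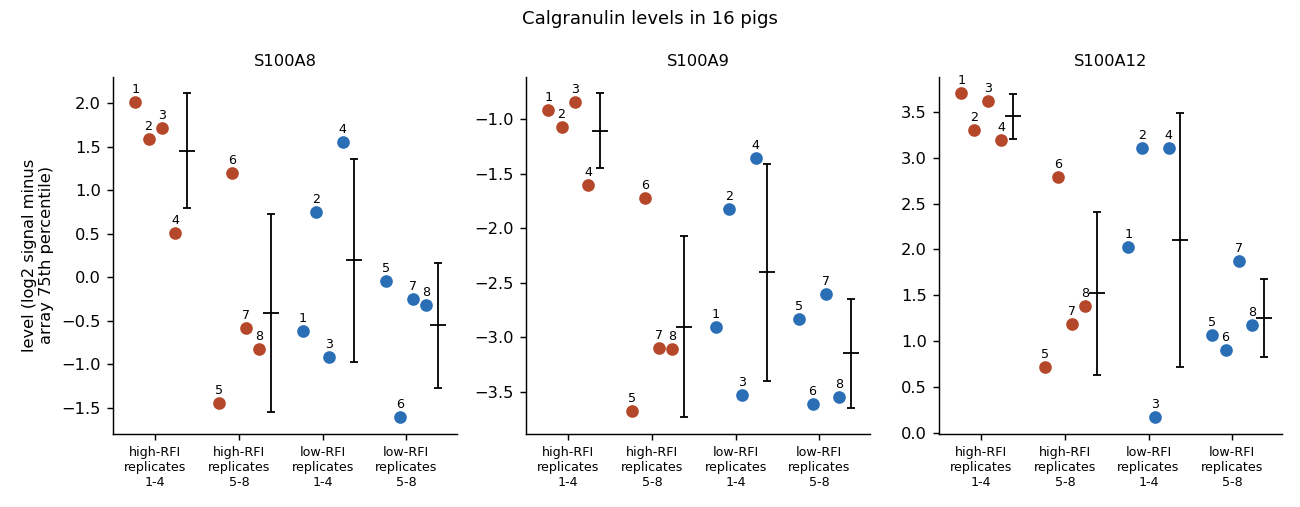
Levels (log2 signal minus the array 75th percentile) of S100A8, S100A9 and S100A12 in 16 pigs, by strain and replicate set. Numbers beside the points are replicates, and the black marks give the mean and SD of each group of 4. For all 3 genes high-RFI replicates 1 to 4 sit high, and high-RFI replicate 6 and low-RFI replicates 2 and 4 stand above the rest of their groups.

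The members were chosen with the set difference known, so it is given as a description with no test. Averaged over the strains, set 2 minus set 1 was -1.31 (SE 0.44) for S100A8, -1.27 (SE 0.33) for S100A9 and -1.39 (SE 0.40) for S100A12. These are 2.48-fold, 2.42-fold and 2.62-fold lower signals in set 2. Over all 33963 probes tested with limma, 2.81% were called lower in set 2 and 1.62% higher at an adjusted p under 0.05. The differences were -1.87, -1.80 and -1.94 among the high-RFI pigs and -0.75, -0.75 and -0.85 among the low-RFI pigs. Within the high-RFI strain S100A9 and S100A12 were lower in every pig of set 2 than in any of set 1, which 9.77% of 33517 probes with a value on every array also were. With any 1 array left out the averaged differences ranged from -1.08 to -1.58 for S100A8, from -1.10 to -1.47 for S100A9 and from -1.22 to -1.71 for S100A12. With background correction by normexp in place of the scanner's processed signal, the S100A9 difference was -0.63, which is 1.55-fold. In whole tissue, fewer cells of a type and less RNA per cell cannot be told apart.

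PGLYRP1 lay the other way on its mRNA probe, A_72_P232762. High-RFI replicates 1 to 4 had levels of -6.78, -4.95, -7.74 and -6.39. High-RFI replicates 5 to 8 had -4.38, -2.77, -4.16 and -3.46. All pigs of set 2 in this strain were above all of set 1, as were 5.95% of the probes with a value on every array. Low-RFI replicates 1 to 4 had -5.82, -5.81, -3.92 and -5.62. Low-RFI replicates 5 to 8 had -3.33, -3.13, -3.13 and -4.17, and the sets overlapped there only through replicate 3, which was above replicate 8.

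These PGLYRP1 signals were faint. The probe was well above background on all 8 arrays of set 2 but on 3 of 8 arrays of set 1, namely high-RFI replicate 2 and low-RFI replicates 2 and 3. The scanner's processed signals ran from 2.38 to 36.3 units in set 1 and from 20.8 to 78.2 units in set 2. Set 2 minus set 1 was 2.31 (SE 0.40), a 4.97-fold higher signal, with 2.77 in the high-RFI and 1.85 in the low-RFI pigs. With normexp background correction, which adds an offset of 50 to every signal, followed by quantile normalization, the difference was 0.40, or 1.32-fold. With quantile normalization of the processed signal it was 2.40. The direction was kept and the size differed between these ways of processing. Which of the faint signals this change came from was not tested.

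The other PGLYRP1 probe, A_72_P245717, did not show this difference. Its levels ran from -5.51 to -5.00 in high-RFI replicates 1 to 4 and from -6.23 to -4.74 in replicates 5 to 8. In the low-RFI pigs they ran from -5.96 to -4.64 in replicates 1 to 4 and from -5.54 to -5.13 in replicates 5 to 8. The groups overlapped throughout, and set 2 minus set 1 was -0.19 (SE 0.22). Across the 16 arrays the 2 PGLYRP1 probes had a Pearson r of 0.04. The set difference given for PGLYRP1 therefore rests on 1 of its 2 probes. The other appears to be antisense to the mRNA, so its values may not be a second reading of the same message.

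**Figure D2:**
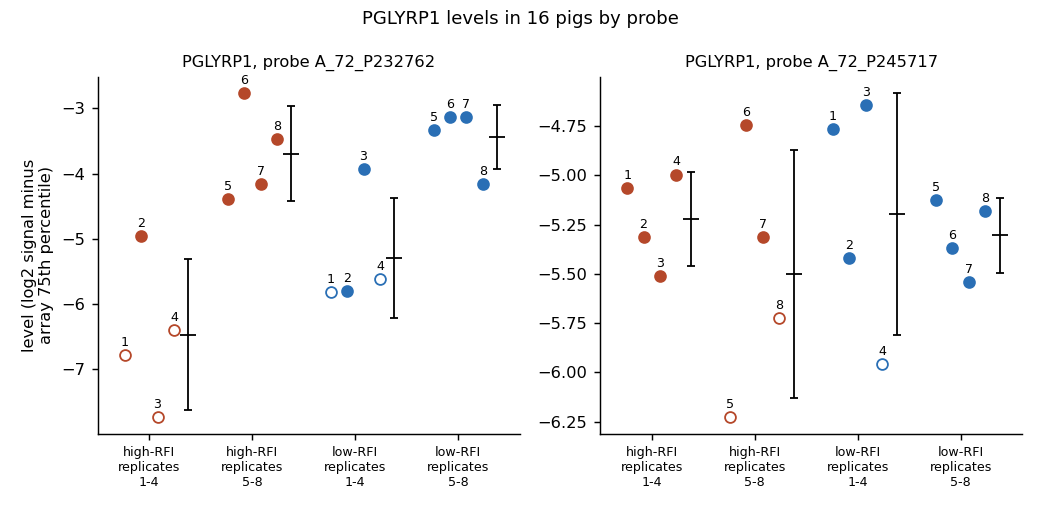
Levels (log2 signal minus the array 75th percentile) of the 2 PGLYRP1 probes in 16 pigs, by strain and replicate set. Open points were not well above background, numbers are replicates, and black marks give the mean and SD. On A_72_P232762 the 8 arrays of set 2 lie at or above -4.38 and 5 of 8 arrays of set 1 are open points, while A_72_P245717 shows no such separation.

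SAA3 stood out in a single pig. On A_72_P165616 high-RFI replicate 5 had a level of 2.59. The other high-RFI pigs had -2.89, -2.34, -2.80, -2.92, -1.61, -2.92 and -2.85, in the order of their numbers. The low-RFI pigs ranged from -3.88 through a median of -3.58 to -1.79, the last in replicate 5. High-RFI replicate 5 was thus 5.50 above the median of the other 15 arrays, a 45.3-fold higher signal, and 4.20 above the next array, high-RFI replicate 6.

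All other SAA3 probes showed the same pig. High-RFI replicate 5 was at 2.45 on A_72_P441669, at 0.50 on A_72_P759880, at -0.40 on A_72_P760975 and at 0.24 on A_72_P766152. On each of them it was the highest array, between 13.8-fold and 18.4-fold above the next one. The SD over the 16 arrays was 1.27 to 1.54, and over the other 15 it was 0.42 to 0.69. Leaving this pig aside, high-RFI replicate 6 and low-RFI replicate 5 had the highest levels on all 5 probes. A_72_P760975 was well above background in all 8 high-RFI pigs and in 4 low-RFI pigs.

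The set difference of SAA3 followed this array. Set 2 minus set 1 was 0.52 to 0.83 over the 5 probes (SE 0.54 to 0.65), and -0.06 to 0.22 without high-RFI replicate 5. The same pig had the lowest S100A9 level of all 16 and the next to lowest S100A8 and S100A12 levels. High SAA3 and low calgranulins thus met in 1 animal.

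**Figure D3:**
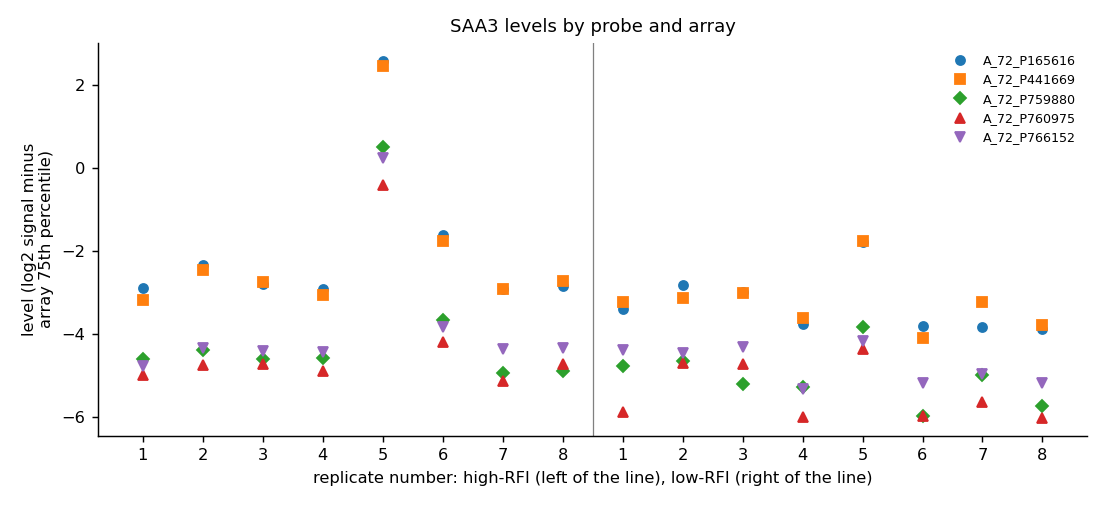
Levels (log2 signal minus the array 75th percentile) of the 5 SAA3 probes on each of 16 arrays, high-RFI pigs left and low-RFI pigs right of the line. On every probe high-RFI replicate 5 lies far above the other 15 arrays, and A_72_P165616 and A_72_P441669, which carry the same sequence, nearly coincide.

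The strains were compared over all 8 pigs each, which addresses the question the study posed, namely which genes differ in fat between pigs selected for low and for high residual feed intake. No member probe was called, against 0% of all 33963 probes: limma called 0 probes at an adjusted p under 0.05, and 1245 had an unadjusted p under that value. The mean S100A9 level of the 8 low-RFI pigs was -2.78 ± 0.83 (SD, n = 8). That of the 8 high-RFI pigs was -2.00 ± 1.13 (SD, n = 8), so low minus high was -0.77 (SE 0.46, 95% interval -1.75 to 0.21). S100A8 differed by -0.70 (SE 0.54) and S100A12 by -0.81 (SE 0.53). PGLYRP1 differed by 0.71 (SE 0.69) on A_72_P232762 and by 0.11 (SE 0.21) on A_72_P245717. On A_72_P232762 it was 0.33 without high-RFI replicate 3 and 1.04 without high-RFI replicate 6. Every one of these had an adjusted p of 1 in limma. The 95% intervals ran from -1.84 to 0.44 for S100A8, from -1.92 to 0.30 for S100A12 and from -0.75 to 2.18 for PGLYRP1 on A_72_P232762.

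SAA3 was lower in low-RFI pigs on all 5 probes, by 0.96 to 1.31 on the log2 scale (SE 0.56 to 0.67, adjusted p of 1 in limma). The smallest unadjusted p, 0.0499, belonged to A_72_P760975. Without high-RFI replicate 5 the differences were -0.39 to -0.66. The strain difference in SAA3 was thus smaller without this pig, and its direction was kept on all 5 probes. On A_72_P165616 the median level was -3.58 in low-RFI and -2.82 in high-RFI pigs.

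The strains stood further apart in set 1 than in set 2 for the calgranulins. Low minus high was -1.26, -1.30 and -1.35 for S100A8, S100A9 and S100A12 in set 1, and -0.14, -0.25 and -0.27 in set 2. For PGLYRP1 on A_72_P232762 it was 1.18 in set 1 and 0.25 in set 2. SAA3 ran the other way, with -0.13 to -0.50 in set 1 and -1.80 to -2.13 in set 2, where high-RFI replicate 5 lies. The difference between the sets was tested as an interaction. It was 1.12 (SE 0.87) for S100A8, 1.05 (SE 0.67) for S100A9, 1.09 (SE 0.80) for S100A12 and -0.92 (SE 0.79) for PGLYRP1 on A_72_P232762. For SAA3 it was -1.41 to -1.67 (SE 1.07 to 1.30). With 1 array left out these values moved widely. S100A8 ran from 0.75 to 1.66, S100A9 from 0.68 to 1.45 and S100A12 from 0.44 to 1.51, each lowest without low-RFI replicate 3 and highest without high-RFI replicate 6. PGLYRP1 ran from -1.43 without high-RFI replicate 2 to -0.47 without low-RFI replicate 3. Without high-RFI replicate 5 the SAA3 values were -0.22 to -0.56. None was called, with adjusted p of 0.79 to 0.944 in limma over the 10 member probes, against 0% of all probes (2261 had an unadjusted p under 0.05).

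The 3 calgranulins moved closely together from pig to pig. Over 16 arrays Pearson r was 0.96 between S100A8 and S100A9, 0.96 between S100A9 and S100A12 and 0.91 between S100A8 and S100A12. After the mean of each strain-by-set group was taken away, r was 0.93, 0.91 and 0.82, so the likeness was also present among pigs of one group. The log2 difference S100A8 minus S100A9 had an SD of 0.34 across pigs, and S100A8 minus S100A12 one of 0.50. Each gene alone had an SD of 1.04 to 1.18. These correlations are descriptions over arrays that also share labelling, scanning and scaling, and r was computed for all 45 pairs of member probes.

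PGLYRP1 and the calgranulins ran opposite over all arrays and within set 1, and together within set 2. Over all arrays r of A_72_P232762 with the calgranulins was -0.70 to -0.59. Over the 8 arrays of set 1 it was -0.76 to -0.58, with 5 of them not well above background for PGLYRP1, and over the 8 of set 2 it was 0.49 to 0.70. Among deviations from the group means it was -0.23 to -0.04. The members were chosen for lying on opposite sides of the set difference, so the negative r over all arrays partly restates that choice. The r within set 1 includes the strain differences there, which had opposite signs, -1.35 to -1.26 for the calgranulins and 1.18 for PGLYRP1. High-RFI replicate 6, the set 2 pig with the highest calgranulins, also had the highest PGLYRP1 of all 16.

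The 5 SAA3 probes had r of 0.96 to 0.99 with one another over 16 arrays and 0.80 to 0.94 without high-RFI replicate 5. With the calgranulins they had r of -0.32 to -0.11 over 16 arrays and 0.04 to 0.51 without that pig, so the sign depended on it.

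**Figure D4:**
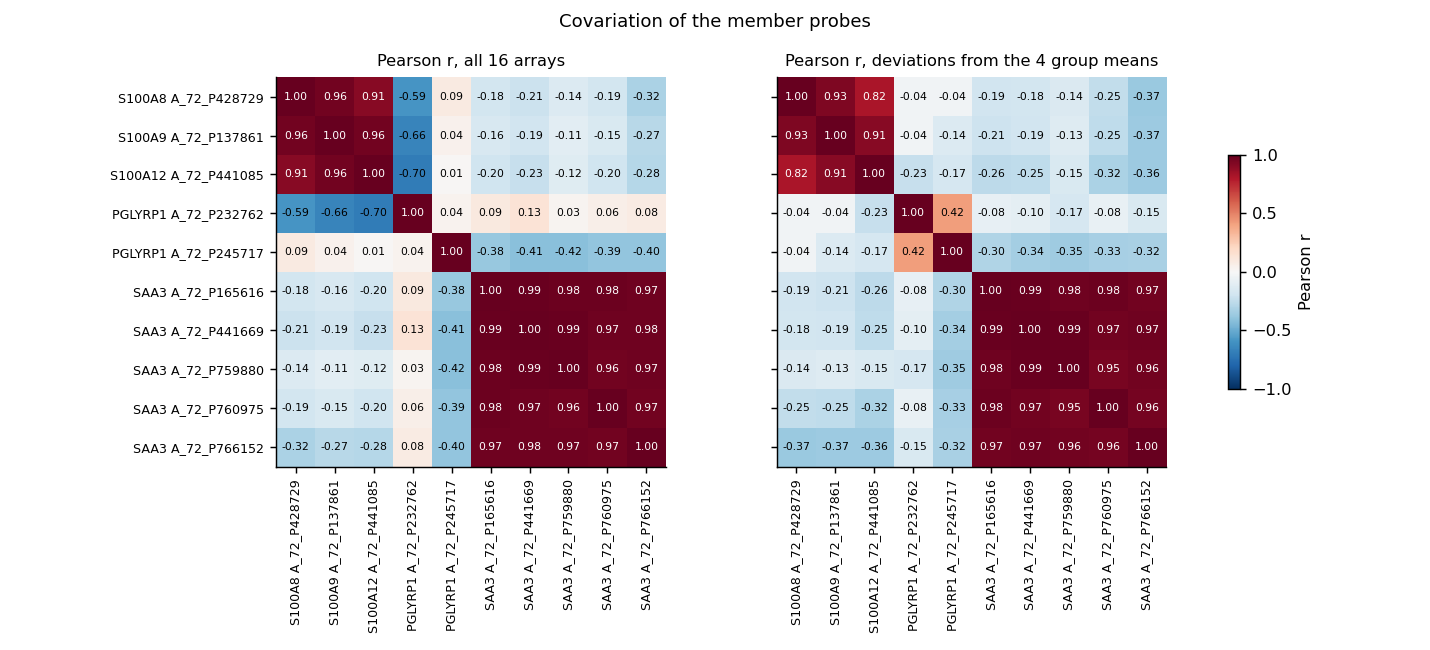
Pearson r between the 10 member probes over 16 arrays (left) and between their deviations from the 4 strain-by-set group means (right), on a colour scale from -1 to 1. The calgranulins form one block and the SAA3 probes another in both, while the negative r between PGLYRP1 A_72_P232762 and the calgranulins is present on the left and lies between -0.23 and -0.04 on the right.

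The genes most like each member over the 16 arrays were found by ranking r over 4787 other named genes. For every calgranulin the first place was another calgranulin. For S100A12 the next were ZFYVE19 (r 0.95), SNCG (r 0.93), EHHADH (r 0.92) and SNX16 (r 0.92), ahead of S100A8 (r 0.91). SNCG encodes gamma-synuclein, a fat and nerve protein, and EHHADH a peroxisomal enzyme of fatty acid oxidation. SH2D3C and SLC30A9 were among the first 5 of both S100A8 and S100A9, with r of 0.88 to 0.91. ATP6V1A was a further one for S100A8 (r 0.89) and ZFYVE19 for S100A9 (r 0.92).

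For PGLYRP1, by its mRNA probe A_72_P232762, the highest were GALNT7 (r 0.93), SRPX (r 0.89), PLAGL1 (r 0.88), CCSAP (r 0.88) and MEST (r 0.87). PLAGL1 and MEST are imprinted genes active in growing tissue. The lowest were FAS, the death receptor (r -0.91), RFLNA (r -0.90) and RHBDD3 (r -0.87). Set accounted for 64.55% of the variance of this PGLYRP1 probe, so these r values partly restate the set difference. Within set 2 alone, r was 0.33 to 0.77 for the highest genes and -0.54 to -0.25 for the lowest. For SAA3, by A_72_P165616, the highest were CCL8, a monocyte-attracting chemokine (r 0.91), NDP (r 0.88), P14ARF (r 0.88), OCT2, here a POU-domain protein (r 0.87), and PIK3R5 (r 0.87). The lowest were SLC16A12, TMEM106C and HEBP2 (r -0.82, -0.82 and -0.79). Within set 1, which lacks high-RFI replicate 5, r with SAA3 was 0.76 for CCL8 but -0.22 for NDP and 0.12 for PIK3R5.

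Other genes of the S100 family did not follow the calgranulins as a group. Of 8 measured genes of a list of 15, 3 were lower and 5 higher in set 2, with a median difference of 0.12, against 58.3% lower and a median of -0.05 over all named genes. S100A4, a marker of fibroblasts and macrophages, was lower in set 2 by 1.61 on the log2 scale (SE 0.40, adjusted p 0.0403 in limma). S100G, a calcium-binding protein of gut and uterus, was higher by 1.23 (SE 0.30, adjusted p 0.0371), a call on 1 of its 3 probes. A probe described as S100A5, found through the array's descriptions and not on the list, was lower by 1.94 (SE 0.25, adjusted p 0.00929). S100A2 and S100A3 had the smallest unadjusted p for strain, with low minus high of -1.64 (SE 0.57) and -2.02 (SE 0.81), and neither was called. The S100A3 probe was well above background on only 7 arrays. A probe described as S100A7-like 2, whose gene belongs to the same family, differed by -0.26 (SE 0.10, adjusted p 0.138).

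Of 13 measured genes for receptors and signalling partners of the members, 9 were lower and 4 higher in set 2 (median -0.12). TLR4, the toll-like receptor of calprotectin and bacterial lipopolysaccharide, was lower by 0.72 (SE 0.17, adjusted p 0.0314 in limma) and was called on 4 of its 5 probes. TREM1, a receptor of neutrophils and monocytes that PGLYRP1 can engage, had -1.52 (SE 0.44, adjusted p 0.0603) on a probe above background on 4 arrays. AGER had -0.42 (SE 0.18, adjusted p 0.178), and CD14 and TLR2 had 0.16 (SE 0.18) and 0.13 (SE 0.23). For strain, 11 of 13 were lower in low-RFI pigs (median -0.15, against 54.6% lower and a median of -0.02 over all named genes) and none was called. TNFRSF1B and SCARB1 had the smallest unadjusted p, at 0.174 and 0.278.

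Among 7 measured genes that recognise or degrade bacterial cell wall, 3 were lower and 4 higher in set 2 (median 0.05). LYZ, lysozyme, was lower by 1.88 (SE 0.44, adjusted p 0.032 in limma) and was called on all 3 of its probes. NOD2, an intracellular sensor of cell wall fragments, had 1.07 (SE 0.39, adjusted p 0.118). For strain, NOD1 and TLR6 had 0.23 (SE 0.20) and -0.17 (SE 0.16). PGLYRP2, the liver-made relative of PGLYRP1, had -0.34 (SE 0.37) and -0.68 (SE 0.48) on its 2 probes, and a probe described as PGLYRP4 had -0.13 (SE 0.19).

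Neutrophil genes were looked at because neutrophils are the main source of calgranulins and PGLYRP1. Of 22 granule genes listed, 9 were on the array by name and 7 were measured. MPO, a granule enzyme looked at as a neutrophil marker, was above background on no array and PR39 on 2. CSF3R and CXCR2 were not on the array by name. ELANE was above background on all 16 arrays, with a set difference of 0.16 (SE 0.13), on a probe matched through a cDNA read. In set 2, 4 of the 7 were lower and 3 higher (median -0.11) and none was called. MMP9 had -0.93 (SE 0.26, adjusted p 0.0558 in limma) on the probe chosen and -3.22 on the other, which was called. LTF had 0.66 (SE 1.35) and for strain -2.07 (SE 1.28), and NPG4 had 0.46 (SE 0.43) for strain. BPI and MMP9 had the highest r of the list with S100A12, 0.71 and 0.74 over 16 arrays, and 0.69 and 0.50 among deviations from group means. Over 16 arrays LCN2, LTF and CHI3L1 had 0.365, 0.25 and 0.20, and NPG4 and ELANE had -0.13 and -0.47. Among deviations these were 0.36, 0.34 and 0.05, and -0.08 and -0.26.

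Of 7 measured neutrophil surface and oxidase genes, 6 were lower in set 2 (median -0.46) and 1 was called, ALOX5AP, which serves leukotriene synthesis (-0.64, SE 0.17, adjusted p 0.0496 in limma), on 1 of its 3 probes. Without low-RFI replicate 8, 4 were lower in set 2 and 3 higher. All 7 were lower in low-RFI pigs (median -0.34) and none was called. ITGB2 and FCGR3B had the smallest p, with -0.52 (SE 0.30) and -0.43 (SE 0.25). The summed level of the granule list ran from 1.84 to 4.54 in set 1 and from 1.82 to 6.01 in set 2. LTF alone reached 4.13 in set 1 and 5.93 in set 2, against medians of -3.41 and -3.08. The upper ends of the granule sum therefore largely restate high LTF on single arrays. The summed level of the surface and oxidase list ran from 3.64 to 4.31 in set 1 and from 2.87 to 4.86 in set 2. The part of neutrophil number in the calgranulin levels was not tested.

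Of 4 measured neutrophil attractants, 3 were lower in set 2 and none was called. SELE, the endothelial selectin, had -1.29 (SE 0.65) between sets and -1.07 (SE 0.74) between strains, CSF3 had 0.40 (SE 0.29) between strains and CXCL2 had -0.23 (SE 0.30) between sets. IL8, named so on the array, was above background on 2 arrays and was not measured.

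**Figure D5:**
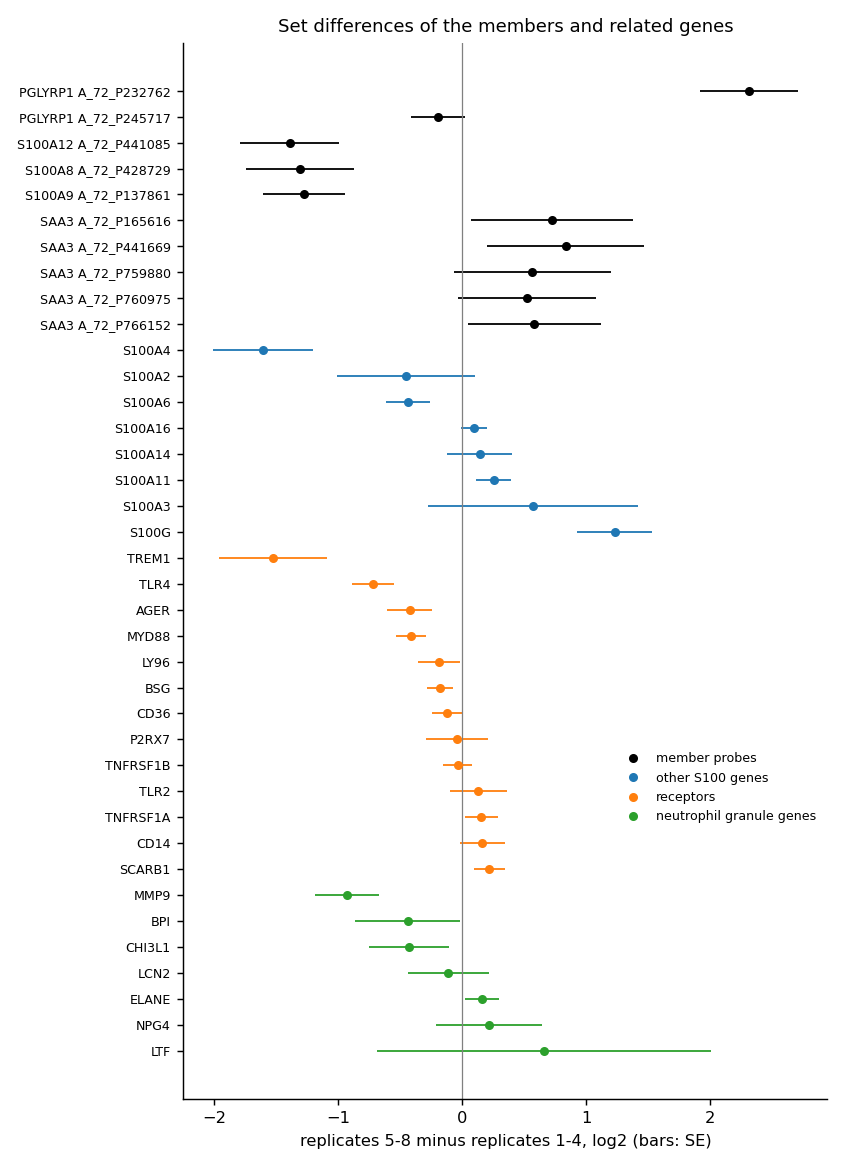
Set 2 minus set 1 on the log2 scale (bars are SE of the limma fit) for the 10 member probes and for the measured genes of 3 lists, the other S100 genes, the receptors and the neutrophil granule genes. The calgranulins and PGLYRP1 A_72_P232762 lie at -1.39 to -1.27 and at 2.31, and in each list of related genes differences lie on both sides of 0.

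Acute-phase genes gave the setting for SAA3. Of 16 measured, 9 were higher and 7 lower in set 2 (median 0.03), 13 were lower in low-RFI pigs (median -0.16), and none was called. ORM1, the acid glycoprotein, had 1.59 (adjusted p 0.361 in limma) and FGG -0.93 (SE 0.48) between sets. SERPINA1 and LBP had -2.00 (SE 1.09) and -0.16 (SE 0.12) between strains. HP, haptoglobin, a main acute-phase protein of the pig, had 0.03 (SE 0.50) between sets.

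Of 20 measured cytokines and factors that induce acute-phase genes, 15 were lower in set 2 (median -0.08) and 2 were called. They were IL6 (-0.89, SE 0.20, adjusted p 0.0288 in limma), the classic inducer of serum amyloid, and IL6ST, the shared chain of its receptor (-0.37, SE 0.07, adjusted p 0.02). FKBP5 had 0.62 (SE 0.25). Between strains 12 were lower (median -0.06) and none was called, and IL6ST and NFKB2 had the smallest p, with -0.22 (SE 0.12) and -0.15 (SE 0.08).

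The pig with high SAA3 differed in other genes too. High-RFI replicate 5 had the highest level of all 16 arrays in 10.9% of 4679 named genes and the lowest in 13.5%. This array also had the lowest share of spots well above background, 68.7%. It was highest in 15 of 17 interferon-induced genes, in 6 of 7 macrophage genes, in 9 of 15 T and NK cell genes, in 4 of 7 neutrophil surface and oxidase genes, in 4 of 13 receptor and signalling genes, in 3 of 16 acute-phase genes (ITIH4, CFB and C3) and in none of the 7 neutrophil granule genes. Its summed macrophage level was 6.03, against 3.51 to 4.87 on the other arrays, its summed interferon-induced level was 8.61 against 5.77 to 7.63, and its summed acute-phase level was 4.23 against 2.79 to 3.79. Its summed T and NK cell level, 4.05, lay within the 3.50 to 4.39 of the other arrays. This array was also highest in 3 of 9 endothelial genes and in none of the 14 adipocyte genes. Counted from the highest array, it had rank 9 for IL6 and rank 3 for HP. The part of these genes in the SAA3 level was not tested.

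Markers of other cells were followed as lists, with values for the genes that the naming rule picked. Of 7 macrophage genes 4 were lower in set 2 and 6 in low-RFI pigs, and none was called. CTSS and CD163 had -0.63 (SE 0.30) and 0.55 (SE 0.34) between sets, and AIF1 and TYROBP had -0.43 (SE 0.29) and -0.36 (SE 0.24) between strains. Of 17 interferon-induced genes 14 were higher in set 2 and none was called. MX1 and MX2 had 1.26 (SE 0.55) and 0.65 (SE 0.40) between sets, and GBP1 and CXCL10 had -0.58 (SE 0.32) and -0.83 (SE 0.53) between strains.

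Of 15 T and NK cell genes 10 were higher in set 2, and KLRB1 was called (1.06, SE 0.23, adjusted p 0.0253 in limma, on 1 of 5 probes), while CD3G had 0.56 (SE 0.37). Between strains GZMK and CD3E had -0.64 (SE 0.31) and -0.90 (SE 0.49). All 3 measured B and plasma cell genes were higher in set 2, with VPREB3 at 0.46 (SE 0.31) and CD79A at 0.18 (SE 0.29), and FCRLA had 0.63 (SE 0.32) between strains. Of 4 erythroid genes 2 were lower in set 2, CA1 with -0.73 (SE 0.21, adjusted p 0.059) on the probe chosen and -1.85 to -0.73 over its 4 probes, of which 1 was called, and HEMGN had -0.26 (SE 0.09) between strains. HBB, HBA and ALAS2 were not on the array by name. Of 11 epithelial genes 7 were higher in set 2 and 2 were called, CLDN3 (4.01, SE 0.75, adjusted p 0.0183) and CLDN4 (3.04, SE 0.68, adjusted p 0.0277). The other CLDN3 probe had -0.16. KRT8 and CDH1 had -1.53 (SE 0.59) and -1.61 (SE 0.69) between strains, and KRT5 and KRT14 were not on the array by name.

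Skeletal muscle genes stood out in a single pig, low-RFI replicate 8, which had the highest level of 16 of the 17 genes. Its summed muscle level was 11.2, against 5.12 to 7.54 on the other arrays, and MYL1, a myosin light chain, was at 7.99 there against at most 0.78 elsewhere. By means, 16 of the 17 were higher in set 2 and all 17 in low-RFI pigs, none called. By medians these counts were 10 and 11, and without that pig, left out after its values were seen, they were 13 and 13. The median summed level was 6.76 in set 1 and 6.44 in set 2. MYH4 and MYL1 had 3.24 (SE 1.61) and 3.10 (SE 1.49) between sets, or 1.89 and 1.72 without that pig. Their probes were well above background on only 4 and 12 arrays. CASQ1 and ENO3 had 1.62 (SE 1.04) and 1.11 (SE 0.87) between strains, or 0.62 and 0.19 without it. The set differences of the calgranulins without it were -1.35 for S100A8, -1.21 for S100A9 and -1.38 for S100A12, and that of PGLYRP1 on A_72_P232762 was 2.43.

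Of 9 endothelial genes 5 were lower in set 2 and none was called, with CLDN5 at -0.58 (SE 0.20) and VWF at -0.41 (SE 0.18), and SOX18 and ENG had -0.33 (SE 0.15) and -0.28 (SE 0.14) between strains. The summed endothelial level had r of 0.74 with S100A12 over 16 arrays, the highest of the list sums, and 0.48 among deviations from group means. Among deviations the adipocyte and granule sums had higher values, 0.58 and 0.53. The acute-phase and the B and plasma cell sums had -0.69 and -0.85 there.

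The fat cells themselves were well represented on every array, with ADIPOQ (adiponectin) at a mean level of 8.33 and FABP4 at 8.52. Of 14 adipocyte genes 10 were lower in set 2 (median -0.13) and 1 was called, AQP7, the glycerol channel (-0.67, SE 0.14, adjusted p 0.0246 in limma). PCK1 had 1.21 (SE 0.47) and LEP, leptin, -0.83 (SE 0.25, adjusted p 0.0721 in limma) between sets. CIDEC and DGAT2 had 0.31 (SE 0.19) and 0.38 (SE 0.26) between strains. The summed adipocyte level ran from 10.3 to 10.8 in set 1 and from 10.3 to 10.7 in set 2. How the amounts of these cell types bear on the calgranulin, PGLYRP1 and SAA3 levels was not tested.

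Strain and set were balanced over the slides. There were 4 slides, and each carried 1 array of every strain-by-set group, so with the slide as a block each member's set difference was the same value, for example -1.39 for S100A12 and 2.31 for PGLYRP1. Slide accounted for 19.9% to 28.3% of the variance of the calgranulins, and set for 32.9% to 40.1%.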

How the data were processed

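RNA of 16 pigs was hybridised to 1-colour Agilent arrays, 1 pig per array, from 150 ng total RNA labelled with Cy3, per the labels. Per the file headers, the deposited intensity values were extracted with Feature Extraction 10.7.3.1, and the processed signal is background-subtracted by the scanner software. The submitters' processing notes name R 2.10.0. The authors' deposited value table holds log2 values of 28963 spots, which equal the log2 processed signal minus the array median, and was used as an alternative.

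Of 45220 spots, 43803 were no controls. Levels were log2 of the processed signal minus each array's 75th percentile, outlier spots were left out, and spots of one probe were averaged. Probes well above background on at least 4 arrays with at least 6 values in each strain were kept (33963 probes, 0.115% of values missing). Strain, set and their interaction were fitted over all of them with limma 3.58.1 in R 4.3.3, two-sided, with Benjamini-Hochberg adjustment and a threshold of 0.05, after tests on simulated data. The number of arrays limits the precision. Each array is a separate pig by the series text, with 8 pigs per strain, so p-values measure the spread between pigs. Normexp used the mean and background intensity values with an offset of 50, and was followed by quantile normalization in place of the 75th percentile.

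The members and gene lists were chosen with earlier results of these data known. The text names all member probes, from each list the 2 genes of smallest strain p and the 2 of largest set difference, each by its kept probe of highest mean level, and the genes of highest and lowest r with a member. Defining markers of cell types and probes with an S100, peptidoglycan recognition or serum amyloid description were added, and a few further genes were named after their values were seen, because they were called or bear on a member. Genes were named from the files or, by accession, from the RefSeq table, and 31435 of 43603 probes had no symbol. Same-numbered pigs of the 2 strains were checked for pairing, and their deviations had correlations of -0.27 to 0.269. Only for replicate 5 was the same-numbered pig of the other strain the best match. The main fits used no pairing, and whether same-numbered pigs shared any handling was not tested. Single values of some genes of the lists are not reported here, although the counts and medians of their lists include them.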

Additional observations from a re-analysis of the deposited data

Results flagged for a closer look

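In each strain of 8 pigs, the gap between the highest or lowest pig and its neighbour was divided by the range and set against Dixon's 95% critical value for 8 samples. Of 20 groups looked at (10 probes in 2 strains), 6 exceeded it. Chance alone would exceed it in about 1 of 20 groups, and the 5 SAA3 probes are repeated readings rather than independent ones.

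High-RFI replicate 5 was the highest high-RFI pig on every SAA3 probe, with a gap of 0.81 of the range on A_72_P766152, 0.801 on A_72_P760975, 0.766 on A_72_P759880, 0.763 on A_72_P165616 and 0.744 on A_72_P441669. On A_72_P165616 its level was 2.59, against -1.61 in the next pig. Low-RFI replicate 5 was the highest low-RFI pig on A_72_P441669, with a gap of 0.537, at -1.76 against -3.02 in the next pig. No calgranulin or PGLYRP1 probe exceeded the critical value in either strain.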

How the results depend on the processing

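No member probe was called for strain or for strain by set under any of the alternatives run. The count of all probes called for strain was 0 throughout except that it was 4 with replicates 1 to 4 only, and leaving out 1 array in turn gave 0 to 1, the 1 without low-RFI replicate 4. For strain by set it was 0 except with the replicate block, which gave 1. The replicate block changed no other call. Strain differences kept their direction in 302 of 303 refits of a member probe. The exception was PGLYRP1 A_72_P245717, which ran from -0.013 (without high-RFI replicate 5) to 0.21 with 1 array left out.

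Strain-by-set differences kept their direction in 267 of 273 refits. PGLYRP1 A_72_P245717 ran from -0.081 to 0.43 with 1 array left out. With low-RFI replicate 8 and high-RFI replicates 2, 5 and 6 left out, SAA3 turned to 0.11 on A_72_P165616, 0.031 on A_72_P441669, 0.35 on A_72_P759880 and 0.049 on A_72_P760975. The cause of these turns was not tested. With the same 4 arrays left out, the set difference was -1.47 for S100A8, -1.30 for S100A9, -1.52 for S100A12 and 2.63 for PGLYRP1 A_72_P232762, and -0.14 to 0.20 for SAA3. Among set differences, 1 of 263 refits moved by more than the SD within groups: PGLYRP1 A_72_P232762 was 0.40 with normexp and quantile normalization, against 2.31. The median set difference over all probes was -0.0316, and -0.0248 to -0.005 under the other scalings. Faint signals limit PGLYRP1, since 5 of 16 arrays were not well above background.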
